A study of Mus musculus with 40 samples.

Results

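The cyclin-dependent kinase inhibitors are a family of 7 genes, Cdkn2a, Cdkn2b, Cdkn2c, Cdkn2d, Cdkn1a, Cdkn1b and Cdkn1c, out of 55450 annotated mouse genes, of which 21951 are protein-coding. They were chosen by name, with earlier results of the same peak lists known, so what follows describes their values and no test was run on them. Each was read through the H3K27me3 and H3K4me3 peaks at its promoters in mm10, a promoter being 3000 bp around an annotated transcript start (2000 bp before it and 1000 bp after), and Cdkn2a and Cdkn2b also through the peaks around their shared locus. The 7 genes have 20 distinct promoters. Oligodendrocyte precursor cells (OPCs) were purified with an antibody to PDGFRa from litters of postnatal day 5 to 7 that the sample labels call AMGFAP-Cre;K27M (hGFAP-Cre in the methods) and grown, undifferentiated, in medium with PDGF. K27M cultures carried histone H3.3 with lysine 27 replaced by methionine, expressed from the endogenous H3-3a gene once Cre, driven by the human GFAP promoter, had removed a stop cassette, and control cultures came from littermates. The driver acts before and outside the OPC lineage, and each culture pooled the tissue of several animals of one region and genotype. Both marks were assayed in 2 control and 2 K27M brainstem cultures (59 and 61) and in 3 control and 3 K27M dorsal telencephalon cultures (59, 60 and 61, called cortex in the sample labels), which gave 10 libraries of each mark in 5 matched pairs.

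Cyclin-dependent kinases carry a cell through its division cycle, and the inhibitors hold them back. The INK4 proteins p16 (Cdkn2a), p15 (Cdkn2b), p18 (Cdkn2c) and p19 (Cdkn2d) bind the kinases that work with D-type cyclins, while p21 (Cdkn1a), p27 (Cdkn1b) and p57 (Cdkn1c) act on a wider set of cyclin-kinase complexes. Cdkn2a also encodes Arf, which restrains the p53 antagonist Mdm2, from a start of its own. H3K27me3 is laid down by Polycomb repressive complex 2 and is found at silenced genes, H3K4me3 marks active or poised promoters, and the Cdkn2a locus is a known Polycomb target in dividing cells.

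In the assembly mm10, Cdkn2a lies on the minus strand at chr4:89274471-89294653. Its p16 transcript starts at 89282192 and its Arf transcript 12461 bp further upstream, at 89294653. Cdkn2b, on the same strand at chr4:89306299-89311039, starts 16386 bp upstream of Arf. The RefSeq promoters nearest to these starts (build GRCm38.p6, the same assembly) run from 250 bases before to 50 after the RefSeq start. RefSeq places the Arf start at 89294619, the Cdkn2b start at 89311032 and the p16 start at 89282192. The promoters are shown because the marks differed between these neighbouring starts, and Cdkn1a is shown as the member with a single H3K27me3 call. CG dinucleotides are in capitals.
p16, chr4:89282143-89282442, minus strand: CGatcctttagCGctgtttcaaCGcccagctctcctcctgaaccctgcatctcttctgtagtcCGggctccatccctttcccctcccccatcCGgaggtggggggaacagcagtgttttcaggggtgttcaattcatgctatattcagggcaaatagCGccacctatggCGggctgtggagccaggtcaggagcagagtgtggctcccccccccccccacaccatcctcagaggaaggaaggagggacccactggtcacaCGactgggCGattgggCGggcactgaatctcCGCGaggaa
Arf, chr4:89294570-89294869, minus strand: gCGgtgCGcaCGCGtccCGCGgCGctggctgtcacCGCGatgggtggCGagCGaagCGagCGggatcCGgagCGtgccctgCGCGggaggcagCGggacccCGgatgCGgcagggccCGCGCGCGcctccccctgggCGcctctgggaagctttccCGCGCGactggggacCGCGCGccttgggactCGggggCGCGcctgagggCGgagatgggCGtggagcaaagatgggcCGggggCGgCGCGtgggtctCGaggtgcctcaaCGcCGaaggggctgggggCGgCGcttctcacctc
Cdkn2b, chr4:89310983-89311282, minus strand: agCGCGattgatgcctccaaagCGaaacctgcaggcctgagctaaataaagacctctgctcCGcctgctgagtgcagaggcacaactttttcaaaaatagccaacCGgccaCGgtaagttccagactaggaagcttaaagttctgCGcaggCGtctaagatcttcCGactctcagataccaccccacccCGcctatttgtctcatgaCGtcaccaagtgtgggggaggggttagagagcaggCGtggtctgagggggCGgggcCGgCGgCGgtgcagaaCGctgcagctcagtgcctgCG
Cdkn1a, chr17:29093519-29093818, plus strand: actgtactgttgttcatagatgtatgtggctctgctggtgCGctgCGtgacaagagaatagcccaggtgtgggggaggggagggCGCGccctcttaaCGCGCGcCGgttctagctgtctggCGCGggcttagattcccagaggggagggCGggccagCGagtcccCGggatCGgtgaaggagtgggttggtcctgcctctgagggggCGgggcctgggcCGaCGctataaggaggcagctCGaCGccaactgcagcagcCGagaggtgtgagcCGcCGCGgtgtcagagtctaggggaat
These 300 bases held 12 CG dinucleotides at p16, 45 at Arf, 18 at Cdkn2b and 23 at the Cdkn1a start shown. Another RefSeq start of Cdkn1a, at 29090979, held 2. The median was 7 over 32851 RefSeq promoters. Fewer CG dinucleotides were found in 60.4% of those promoters than at p16 and in 98.1% than at Arf. The motif GGGCGG, counted on both strands, occurred 1 time at p16, 3 times at Arf and 1 time at Cdkn2b, and 35.7% of the RefSeq promoters held it. The table matched 6 of the 7 genes.

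The peak lists differed between genotypes before any gene was considered. H3K27me3 lists held 12715 to 64808 peaks in controls and 4739 to 15753 in K27M, covering 26.5 to 152 Mb and 13.3 to 41.4 Mb, while H3K4me3 lists held 22722 to 31200 and 20961 to 30826 peaks. The lists give no read numbers and the study's read totals were not used here, so calls were not set against depth, and a promoter without a peak may hold signal below the threshold of the caller. As a check of the cell type, Pdgfra, Cspg4, Olig1, Olig2, Sox10 and Nkx2-2 had a promoter H3K4me3 peak in all 10 libraries. Of these 6 OPC markers, 5 had no H3K27me3 peak in any library, and Nkx2-2 had one in 2 control and 3 K27M libraries. Of the microglial markers, Cx3cr1, Csf1r and Aif1 had no H3K4me3 peak in any library, and P2ry12 had one in 8. Of the endothelial markers, Pecam1 and Tek had none, Cldn5 had one in 5 and Kdr in 10, and neuronal markers had one in 9 or 10 libraries. Of the astrocytic markers, Aqp4 had one in 1 library, Gfap and Aldh1l1 in 6 and Gja1 in 10. An H3K27me3 peak in at least 1 library was found at 4 of 4 neuronal, 3 of 4 astrocytic, 2 of 4 endothelial and 2 of 4 microglial markers. The neuronal markers Rbfox3 and Slc17a7 had it in all 10 libraries.

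H3K27me3 was found at 3 of the 7 inhibitor genes. The imprinted gene Cdkn1c carried a promoter peak in 10 of 10 libraries, as did 5.79% of protein-coding genes. Cdkn2a carried one in 8 of 10 libraries, and Cdkn1a in 1, as did 7.88% of protein-coding genes. Cdkn2b, Cdkn2c, Cdkn2d and Cdkn1b carried none in any library, a state shared with 63.5% of protein-coding genes. Counted per library, 1 member was marked in brainstem control 59 (Cdkn1c) and 2 in each of the other 9. H3K4me3 was found at all 7 members in 8 libraries and at 6 in telencephalon control 59 and K27M 59, where Cdkn1c had no peak. A promoter H3K4me3 peak in every library was seen for 58% of protein-coding genes and for 6 of the 7 members.

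**Figure D1:**
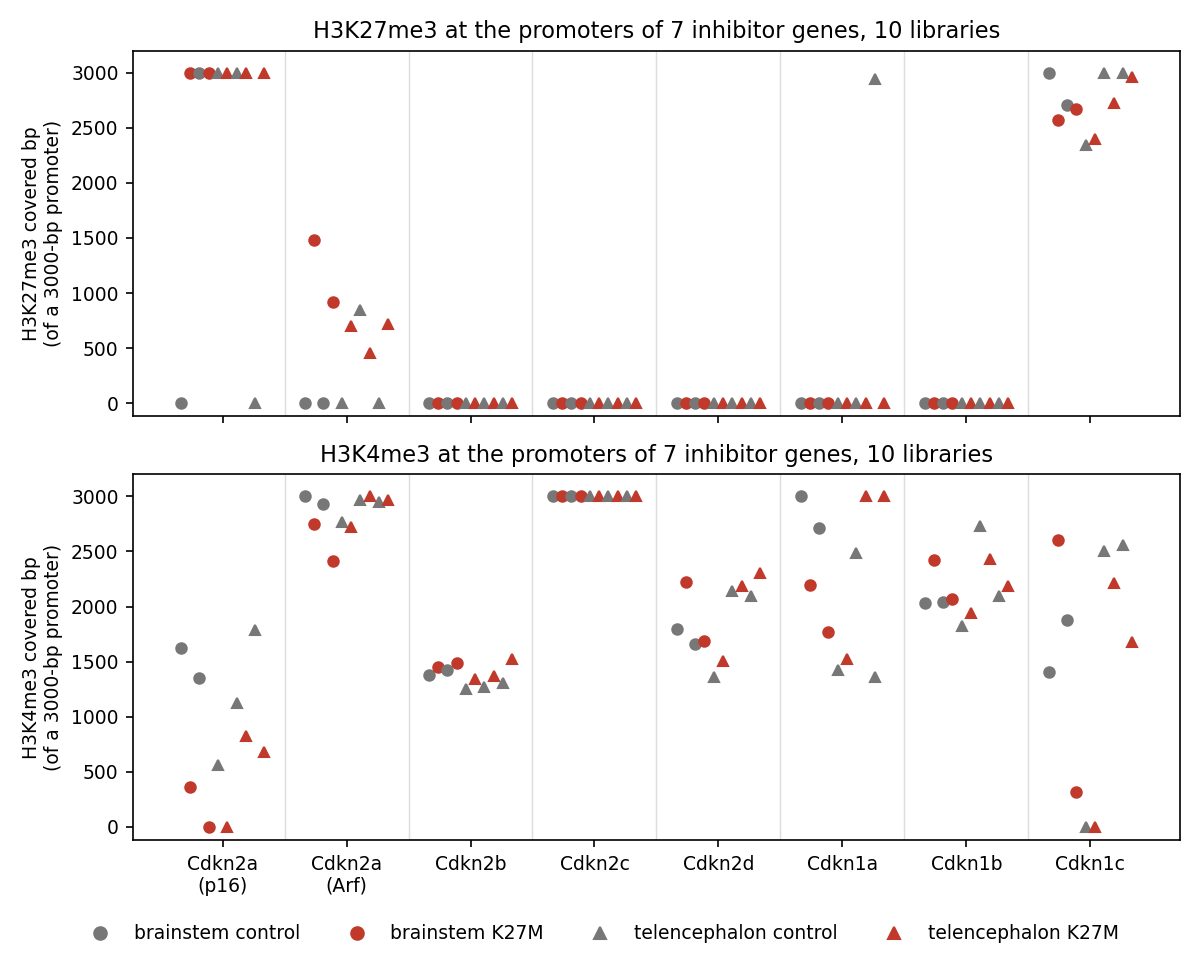
Base pairs of the 3000-bp promoter covered by H3K27me3 peaks (top) and H3K4me3 peaks (bottom) for each inhibitor gene, with Cdkn2a split by start and the best-covered start for the other genes; each point is 1 library, grey for control and red for K27M, circles for brainstem and triangles for telencephalon. H3K27me3 filled the p16 promoter in 8 of 10 libraries and was at 0 for Cdkn2b, Cdkn2c, Cdkn2d and Cdkn1b, while H3K4me3 covered 3000 bp at Cdkn2c in every library.

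At Cdkn2a, H3K27me3 formed 1 long domain over the p16 start in the 8 libraries that had it. In K27M the domain was 30079 and 29597 bp long in brainstem cultures 59 and 61, and 25232, 24961 and 27027 bp in telencephalon cultures 59, 60 and 61. In the controls that had it, the domain was 23470 bp in brainstem 61, 21184 bp in telencephalon 59 and 29211 bp in telencephalon 60. Each was longer than at least 98.7% of the H3K27me3 peaks of its own library. The lengths of the 2 genotypes overlapped.

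The domain ended near the Arf start in all K27M libraries, while its end varied among controls. In K27M its upstream edge lay between 548 bp short of the Arf start and 481 bp past it, a range of 1029 bp over 5 libraries. In the controls the edge lay at −151 bp from the Arf start in telencephalon 60, −3785 bp in brainstem 61 and −7992 bp in telencephalon 59, negative values being short of it. With smaller separate peaks included, the stretch from the p16 to the Arf start was covered to between 95.6% and 100% in K27M, and to 98.8%, 74.4% and 47.1% in those controls. Over the Arf promoter, H3K27me3 covered 1481, 921, 704, 452 and 715 bp in K27M (brainstem 59 and 61, telencephalon 59, 60 and 61), 849 bp in telencephalon control 60 and 0 bp in the other 4 controls. No H3K27me3 peak reached Cdkn2b in any library.

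Fold enrichment over input, which for a broad peak is the mean over its length, was higher in the K27M library of each pair that had the domain in both. It was 5.49 in control and 22.2 in K27M for brainstem 61, 3.59 and 7.90 for telencephalon 59, and 8.81 and 15.7 for telencephalon 60. The difference over these 3 pairs was 9.30 ± 6.55 (SD, n = 3). The remaining K27M libraries, brainstem 59 and telencephalon 61, were at 18.8 and 18.5. A rise of this kind was common, since the fold of the promoter peak was higher in K27M in 5 of 5 pairs, an absent peak counted as lower, for 41.9% of the protein-coding genes with an H3K27me3 peak in every K27M library and for 7.02% of those with one in any library. Within its own list, the p16 domain was at the 94.9th to 98.8th percentile of fold in controls and at the 97.3rd to 98.7th in K27M. These percentiles overlapped between genotypes. The ranks by fold did not, at 619 to 666 in the 3 controls with the domain and 129 to 231 in the 5 K27M libraries. The lists are of unlike length, so rank and percentile are not interchangeable.

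The 2 libraries without the domain were controls. In the window of Cdkn2a and Cdkn2b with 20000 bp on each side (chr4:89254471-89331039), H3K27me3 covered 637 bp in brainstem control 59, as a single peak beyond the 3′ end of Cdkn2a, and 0 bp in telencephalon control 61. It covered 25780, 22582 and 29211 bp in brainstem control 61 and telencephalon controls 59 and 60, and 27851 to 30079 bp in the 5 K27M libraries. The difference, K27M minus control, was 13148 ± 14585 bp (SD, n = 5 pairs), and without the pairs of these 2 controls it was 2663 ± 3588 bp (n = 3). Brainstem control 59 and telencephalon control 61 had 54227 and 64808 H3K27me3 peaks, the most of all 10 lists. Whether signal below the threshold remained at the locus in these 2 libraries was not tested.

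A peak in every K27M library but not in every control was seen for 68 protein-coding genes. That is 0.849% of the 8005 with an H3K27me3 peak in any library, while 1340 had a peak in every K27M library and could meet the condition. The next pattern was taken from the p16 calls themselves, so p16 meets it by construction and the share is no measure of how unusual p16 is. A peak in the other 8 libraries and in neither of those 2 controls was seen at 0.00876% of promoters, which is 2 of 22829, the p16 start and a start of Zfhx3. Of the 10 possible pairs of controls, the pair of brainstem control 61 and telencephalon control 61 also had 2 such promoters, 1 pair had 1 and the others had 0. Per Mb of all H3K27me3-covered sequence, the window held 6.23, 523, 852, 304 and 0 bp in brainstem controls 59 and 61 and telencephalon controls 59, 60 and 61. It held 1340, 993, 2115, 672 and 1323 bp in the K27M libraries in the same order. The share was higher in K27M in every pair, by 952 ± 488 bp per Mb (SD, n = 5), and the denominator itself was smaller in K27M.

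**Figure D2:**
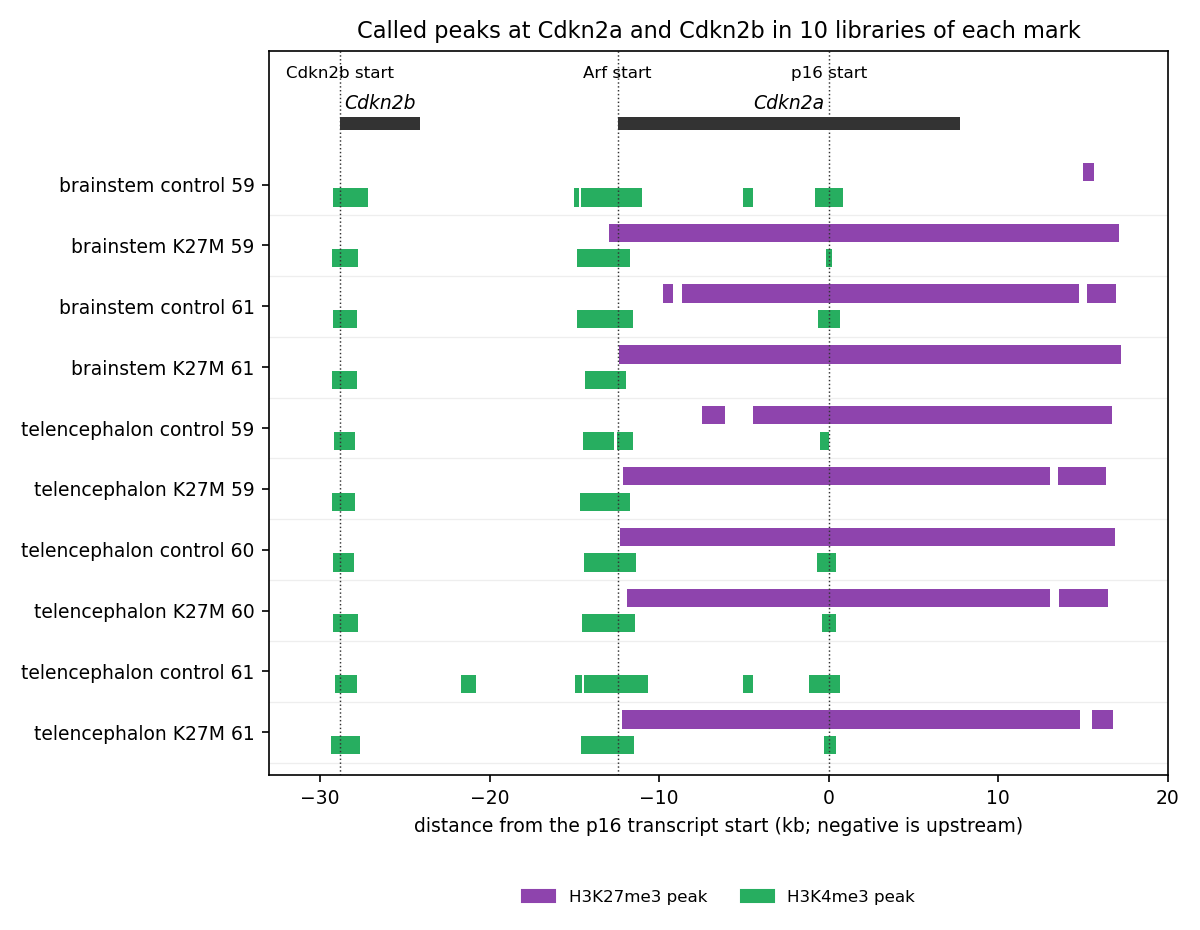
Called peaks around Cdkn2a and Cdkn2b in each library, drawn by distance in kb from the p16 start with transcription running to the right; purple bars are H3K27me3 peaks, green bars H3K4me3 peaks, and dark bars the genes. The H3K27me3 domain ends near the Arf start in all K27M libraries and is absent over the genes in brainstem control 59 and telencephalon control 61.

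H3K4me3 at the p16 start was lower in K27M. Its peaks covered 1620, 1352, 563, 1124 and 1784 bp of the promoter in brainstem controls 59 and 61 and telencephalon controls 59, 60 and 61, and 360, 0, 0, 828 and 681 bp in the matched K27M libraries. Every pair was lower in K27M, by 915 ± 462 bp (SD, n = 5), while the ranges of the 2 genotypes overlapped because telencephalon control 59 was low. Of the promoters of protein-coding genes with an H3K4me3 peak in any library, 0.526% were lower in K27M in 5 of 5 pairs. Being lower in every pair needs a peak in all 5 controls, and this base also holds promoters without one. The share is by promoter and not by gene. No H3K4me3 peak was called at p16 in brainstem K27M 61 and telencephalon K27M 59.

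Peak fold varies with the library, so the p16 value was set against Arf in the same library. The fold at p16 was 0.538, 0.366, 0.533, 0.256 and 0.642 times that at Arf in the controls in the order above, and 0.121, 0.205 and 0.109 times in brainstem K27M 59 and telencephalon K27M 60 and 61, the 3 K27M libraries with a p16 peak. The 5 control ratios did not overlap the 3 K27M ratios, and how many other promoters separate in this way was not counted. The ratio of telencephalon control 59 rests on low folds, 2.17 at p16 and 4.07 at Arf. Its p16 peak was at the 6.26th percentile of fold in that library. The Arf peak itself covered 2770 to 3000 bp in controls and 2410 to 3000 bp in K27M, with no common direction of its fold over the pairs. The 2 controls without H3K27me3 at p16 had the widest p16 H3K4me3 peaks and the highest ratios. Among the 10 libraries they alone also had a peak between the p16 and Arf promoters, of 573 bp and fold 5.44 in brainstem control 59 and of 557 bp and fold 15.5 in telencephalon control 61.

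Cdkn2b, which stayed free of H3K27me3, was measured in the same way. Its H3K4me3 fold was 0.718, 0.793, 0.660, 0.715 and 0.862 times that of Arf in the controls and 0.666, 0.432, 0.467, 0.616 and 0.360 times in K27M. This ratio was also lower in K27M in every pair, and the ranges overlapped, the lowest control being 0.660 and the highest K27M library 0.666. The base pairs covered moved the other way, from 1377, 1425, 1250, 1273 and 1301 bp in controls to 1453, 1483, 1345, 1372 and 1522 bp in K27M, a difference of 110 ± 64.3 bp (SD, n = 5). Cdkn2d, on chromosome 9, was likewise covered more widely in K27M in every pair, by 172 ± 159 bp. The Cdkn2b difference was 360 ± 554 bp with peaks of at least 3-fold only, under which telencephalon control 59 has no Cdkn2b peak. The Cdkn2d difference was 109 ± 85.8 bp without brainstem 59 and 68 ± 105 bp with a promoter of 1000 bp on each side. Covered base pairs were higher in K27M in 5 of 5 pairs for 5.92% of the protein-coding genes with an H3K4me3 peak in every library.

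**Figure D3:**
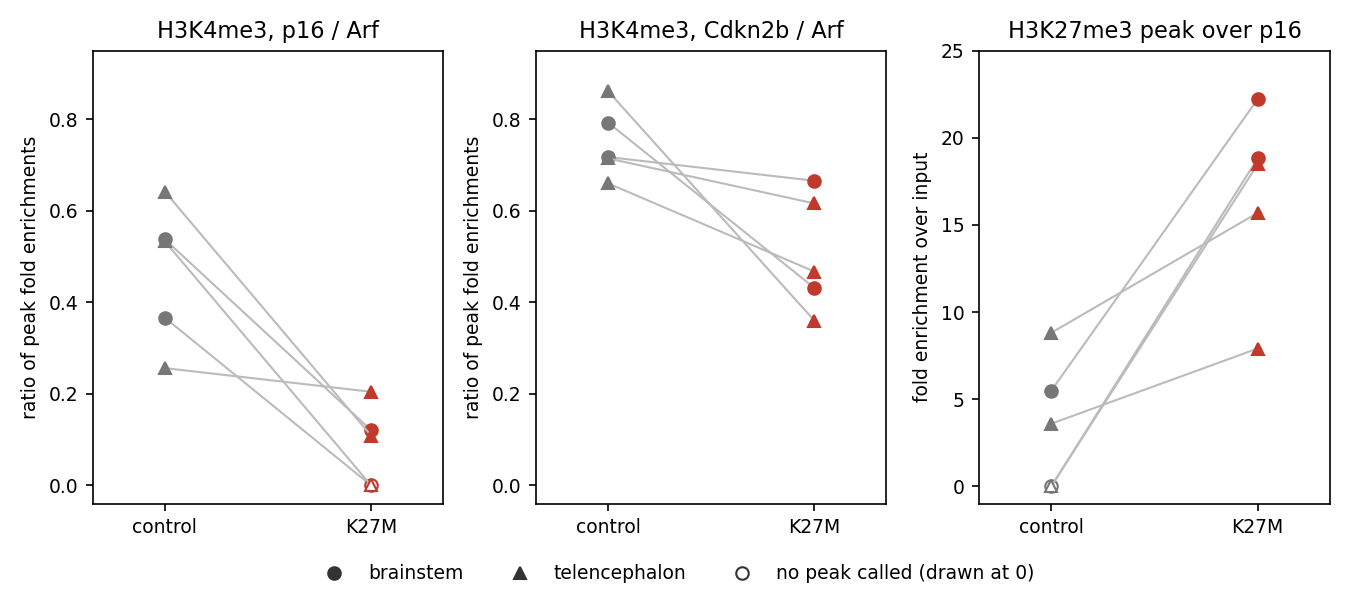
Matched control (grey) and K27M (red) libraries joined by lines, circles for brainstem and triangles for telencephalon; the left and middle panels show the H3K4me3 peak fold at p16 and at Cdkn2b divided by that at Arf, and the right panel the fold enrichment of the H3K27me3 peak over the p16 start. Open symbols at 0 are libraries with no called peak, and the K27M ratios at p16 reach 0.205 while the control ratios start at 0.256.

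Cdkn1c, at chr7:143458339-143461050 on the minus strand, held both marks. Its promoter H3K27me3 fold was 5.58 and 8.01 in control and K27M of brainstem 59, 5.48 and 11.98 in brainstem 61, 1.91 and 2.97 in telencephalon 59, 6.33 and 11.3 in telencephalon 60, and 3.84 and 13.6 in telencephalon 61. The fold was higher in K27M in every pair, by 4.95 ± 3.44 (SD, n = 5), which is the direction of the 41.9% given above. Within its own list the peak rose from the 2.88th to the 73rd percentile of fold in telencephalon 59, and lay between the 91.8th and 98.4th in the other 8 libraries. The extent went the other way. The peak over the promoter was 21790, 30471 and 19840 bp long in brainstem control 59 and telencephalon controls 60 and 61, the 3 controls with the most H3K27me3 peaks, and 3404 and 2347 bp in brainstem control 61 and telencephalon control 59. In K27M it was 2396 to 3505 bp.

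Counted over the joint span of those peaks (chr7:143438434-143469823), H3K27me3 covered 30146, 8711, 6139, 30720 and 30723 bp in the controls and 4586, 9886, 2396, 7794 and 13371 bp in the matched K27M libraries. K27M was lower in 4 of 5 pairs, with a difference of −13681 ± 11827 bp (SD) over all 5, and higher in brainstem 61. The span was set by the controls with the longest peaks. The promoter peak was shorter in K27M in at least 4 of 5 pairs for 76.6% of the protein-coding genes with H3K27me3 in every library. In K27M, the H3K27me3 peak over Cdkn1c was short, whereas that over the p16 start of Cdkn2a ran over 24961 bp or more. Further separate H3K27me3 peaks lay in the Cdkn1c span in every K27M library except telencephalon 59, with 6 peaks in all in telencephalon K27M 61. H3K4me3 at Cdkn1c ranged from no peak in both telencephalon 59 libraries to a peak of 2758 bp in brainstem K27M 59, with 2704 bp in telencephalon control 61, and its fold was lower in K27M in 3 of the 4 pairs with a peak in both.

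**Figure D4:**
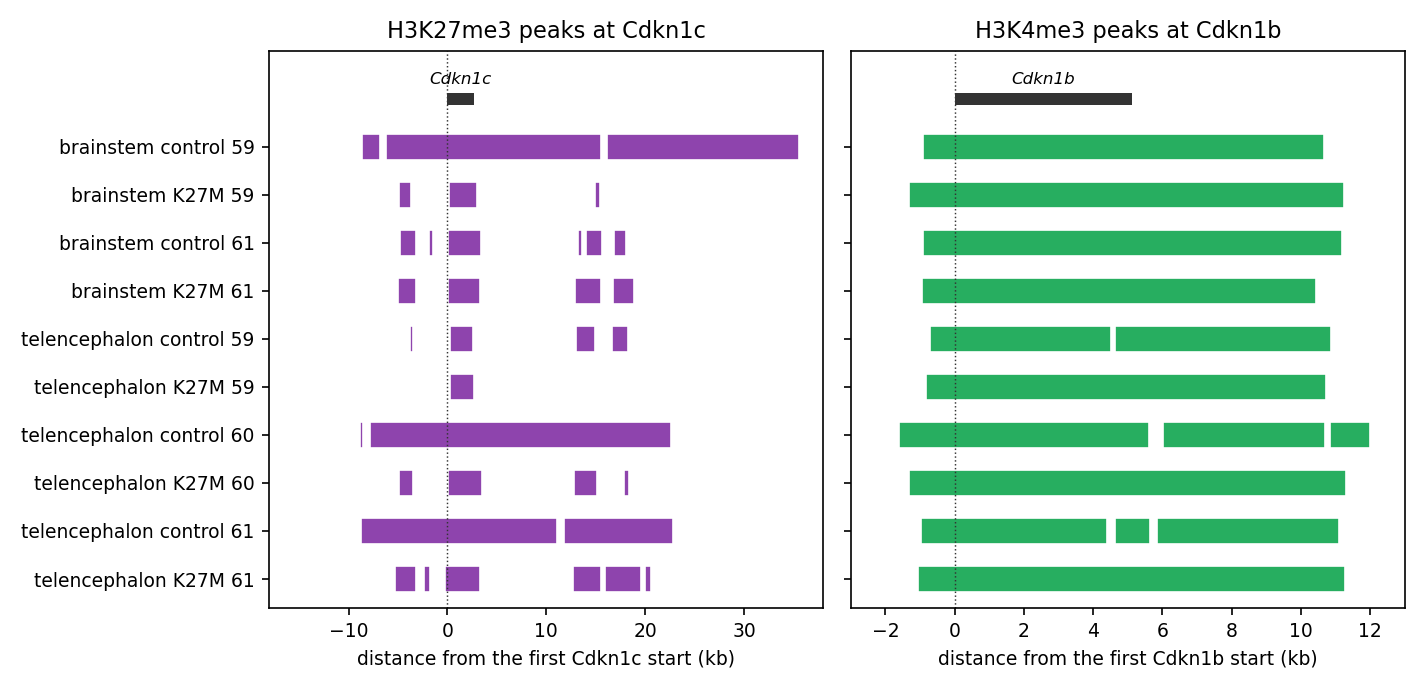
H3K27me3 peaks at Cdkn1c (left) and H3K4me3 peaks at Cdkn1b (right) in each library, drawn by distance in kb from the first annotated start with transcription running to the right; dark bars are the genes. At Cdkn1c long peaks of 19840 to 30471 bp are seen in 3 control libraries, and at Cdkn1b one region of similar width in every library is called as 1 peak or as 2 or 3.

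Cdkn1a, the p53 target that encodes p21, lies at chr17:29090976-29100727 on the plus strand. A single H3K27me3 peak, of 3416 bp and fold 4.85, lay over its start at 29093769 in telencephalon control 61. The other 9 libraries had none. H3K4me3 over its best-covered promoter went from 3000 to 2199 bp and from 2715 to 1772 bp, control to K27M, in brainstem 59 and 61, and from 1421 to 1527 bp, 2489 to 3000 bp and 1356 to 3000 bp in telencephalon 59, 60 and 61. Both brainstem pairs were lower in K27M and all 3 telencephalon pairs were higher, and whether the regions differ was not tested. Over the joint span of the H3K4me3 peaks at the gene (chr17:29090004-29097614), the difference was −870 ± 961 bp in the brainstem (n = 2) and 954 ± 1879 bp in the telencephalon (n = 3), where telencephalon 60 was lower in K27M, at 5846 bp against 6467 bp in 5 separate peaks.

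Cdkn1b, which encodes p27, lies at chr6:134920401-134925513 on the plus strand and had one of the widest H3K4me3 regions of each library. Over the joint span of its peaks (chr6:134918779-134931690), H3K4me3 covered 11576, 12119, 11468, 12359 and 11639 bp in controls and 12548, 11406, 11568, 12612 and 12363 bp in K27M. The ranges overlapped. The region ran past the end of Cdkn1b and over the start of Lockd, a long non-coding RNA gene on the same strand. It was 1 peak in all K27M libraries and both brainstem controls and was split into 2, 3 and 3 peaks in telencephalon controls 59, 60 and 61.

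The longest single promoter peak at Cdkn1b was 5233, 7231 and 5371 bp in the telencephalon controls and 11568, 12612 and 12363 bp in K27M, with the region split in the controls as above. At Cdkn1a the K27M peaks were 1.81, 1.71 and 2.15 times as long, and in telencephalon 61 both libraries had 1 peak there. A peak more than 1.5 times longer in K27M in 3 of 3 telencephalon pairs was seen for 0.463% of the protein-coding genes with H3K4me3 in every library, a limit chosen after these values were seen, and a longer one of any size for 44.2%. The base pairs covered at Cdkn1b differed by only 359 ± 325 bp in the telencephalon (n = 3). Cdkn2c was covered over 3000 bp in every library, and its peak was longer in K27M in every pair, at 4076 to 5820 bp in controls and 5542 to 7507 bp in K27M. A longer peak in 5 of 5 pairs was seen for 7.02% of those genes.

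Consensus peaks of each group, which need at least 2 cultures, were used to call a promoter bivalent where both marks met. In brainstem controls 1 of 7 members (Cdkn1c) was bivalent, beside 9.32% of protein-coding genes. The other 6 carried H3K4me3 only, as did 11413 of the 21951 protein-coding genes. In telencephalon controls 2 were bivalent (Cdkn2a and Cdkn1c), beside 14.5% of protein-coding genes. In K27M, Cdkn2a and Cdkn1c were bivalent in both regions, beside 6.16% of protein-coding genes in the brainstem and 6.93% in the telencephalon. By start, p16 carried H3K4me3 only in brainstem controls and H3K27me3 only in brainstem K27M, and both marks in the telencephalon of either genotype. With 2 brainstem cultures per genotype, 1 missing call removes a consensus peak, while the telencephalon has 3 cultures. Brainstem control 61 had H3K27me3 over 3000 bp of the p16 promoter, and brainstem K27M 59 had H3K4me3 over 360 bp. The brainstem states at p16 thus each rest on 1 library without a peak. With both marks required in every control culture, no member was bivalent in the telencephalon, since telencephalon control 61 lacked H3K27me3 at Cdkn2a and telencephalon control 59 lacked H3K4me3 at Cdkn1c.

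Controls of the telencephalon had 2 members with H3K27me3 in each of 3 libraries, but not the same ones. They were Cdkn2a and Cdkn1c in cultures 59 and 60, and Cdkn1a and Cdkn1c in culture 61. Those of the brainstem had 1 in culture 59 (Cdkn1c) and 2 in culture 61 (Cdkn2a and Cdkn1c). H3K27me3 in the Cdkn2a and Cdkn2b window differed by 4056 bp, telencephalon minus brainstem controls, with an SD of up to 17779 bp within a region, and turned to −8516 bp without culture 59 of the brainstem.

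The partners of the inhibitors in the G1 to S step were read from a list of 25 genes of cyclins, kinases, Rb proteins, E2F and DP factors, Trp53 and Mdm2. All 25 had a promoter H3K4me3 peak in every library, and 20 had no H3K27me3 peak in any, beside the 58% and 63.5% of protein-coding genes given above. The D-type cyclin gene Ccnd2 and its kinase gene Cdk6 had H3K27me3 in every library, at a fold of 3.65 to 11.6 and 3.81 to 7.78 in controls and of 5.21 to 21.9 and 5.62 to 14.6 in K27M. The transcription factor genes E2f8, E2f6 and E2f1 had it in 9, 5 and 2 libraries. The median gene of the list, of the 7 members and of all protein-coding genes had H3K27me3 in 0 libraries.

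Around the locus, Mtap, a methionine salvage gene on the p16 side, had H3K4me3 in 10 libraries and H3K27me3 in none. Dmrta1, beyond Cdkn2b, had both marks in 10 libraries. The non-coding gene Gm12606, whose start lies within the H3K27me3 domain, had H3K27me3 in the same 3 control and 5 K27M libraries as Cdkn2a and no H3K4me3 in any. Promoter H3K27me3 coverage over the 10 libraries was also compared with that of other protein-coding genes, leaving out genes close to the member on its chromosome. Of the genes compared, the one most like Cdkn2a was Nkx3-2, with a mean absolute difference of 35.8 bp. Tmtc4 followed at 331 bp and En1 at 365 bp. For Cdkn1c the most alike were Mal at 75.6 bp, Insm2 at 97.2 bp and Ahnak at 101 bp, and Cdkn2b tied at 0 with 13916 genes.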

How the data were processed

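The 20 deposited peak lists came from H3K27me3 and H3K4me3 ChIP-seq of control and K27M OPC cultures. Per the labels and methods, the authors used BWA (0.7.17-r1188) for alignment to mm10 and MACS2 (2.2.7.1) for peaks, broad for H3K27me3 and narrow for H3K4me3, each library being set against its matched input. The files give, as the authors' values, a ratio (fold enrichment over input), the −log10 p-value and q-value, and a display score that was not used. The Drosophila spike-in did not enter these calls, so folds are not absolute levels, and the 20 inputs were not used here.

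Covered base pairs and overlaps of at least 1 bp were computed in Python 3.11.15 (numpy 2.4.6) on GENCODE M21 promoters, whereas the authors used a later release. Folds are of the strongest peak over a promoter, and a gene takes its best-covered start. Consensus followed the MSPC rule, rewritten here, with a stringent p-value limit of 1e-10 (H3K4me3) or 1e-08 (H3K27me3), a weak limit of 1e-06 or 1e-04, and support from at least 2 cultures. Functions were tested on simulated data. The members, gene lists and alternatives were chosen with earlier results of these data known. All 7 members and the G1/S genes with H3K27me3 are named by rule. With 5 pairs, the smallest p of an exact two-sided sign-flip permutation test is 0.0625, and none was run.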

Additional observations from a re-analysis of the deposited data

Results flagged for a closer look

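One result moved in opposite directions in the regions. H3K4me3 over the best-covered Cdkn1a promoter was lower in K27M in both brainstem pairs, by a mean of −872 bp, and higher in all 3 telencephalon pairs, by a mean of 754 bp. The difference between regions was not tested. Over the joint span of the Cdkn1a H3K4me3 peaks, 2 of 3 telencephalon pairs were higher. Groups of 2 or 3 libraries are too small for the check of single outlying samples.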

How the results depend on the processing

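The mean H3K4me3 coverage at p16 and the mean p16 to Arf ratio stayed lower in K27M under all settings run. This did not hold for every pair. With a fold of at least 3, telencephalon control 59 loses its p16 peak of fold 2.17, and neither library of that pair has one. The covered bp differed by −1070 to −806 bp with a culture left out and −737 bp without brainstem 59 and telencephalon 61 (both settings added after the values were seen). With a promoter of 500 bp on each side the difference was −515 bp. The ratio, an absent p16 peak counted as 0, differed by −0.463 to −0.342 with a culture left out and −0.317 without both. Its smallest difference was −0.274 ± 0.235 (SD) with a fold of at least 3, and with equal numbers of peaks it was −0.320 ± 0.286. The window difference in H3K27me3, K27M minus control, stayed positive, at 9075 to 16775 bp with a culture left out. The difference between telencephalon and brainstem controls in that window did not: it was −1918 bp with telencephalon cultures 59 and 61 only and −8516 to 16627 bp with a culture left out. Bivalent members in telencephalon controls fell to 0 with both marks required in every control culture, were 1 without brainstem 59 and telencephalon 61, and ranged from 0 to 2 with a culture left out. Mean promoter H3K27me3 over the 7 members, 66.5 bp higher in K27M, was −8.68 to 92.9 bp with a culture left out and −12.4 bp without brainstem 59 and telencephalon 61. Mean H3K4me3, −1.49 bp, was 21.3 bp with equal numbers of peaks, 46.2 bp with a fold of at least 3, 12.2 bp with a promoter of 500 bp on each side and −48.1 to 102 bp with a culture left out. The number of members with H3K4me3, which did not differ on average, was 0.2 higher in K27M with a fold of at least 3 and differed by −0.2 with 500 bp of overlap. Among single genes, H3K4me3 at Cdkn2d kept its direction, at 75.3 bp without brainstem 59 and telencephalon 61 and 56.8 bp with a promoter of 500 bp on each side. It turned at Cdkn1a (−282 to 365 bp with a culture left out, −109 bp without both), at Cdkn1b (−14.3 to 159 bp, and −49 bp), at Cdkn1c (−685 to 4.25 bp) and at Cdkn2a with a promoter of 500 bp on each side (28.6 bp), and H3K27me3 at Cdkn1c with equal numbers of peaks (323 bp) and a promoter of 1000 bp on each side (11.4 bp). The cause of these turns was not tested. With 1 brainstem culture left there is no consensus, so that setting gave no value. No paired analysis was possible because no result comes from a test to which a replicate block could be added, while the differences themselves were taken within the 5 matched pairs. A fold ratio of window shares was not formed, since telencephalon control 61 is at 0. Read totals were not used here, so whether small differences in peak coverage move with depth was not tested.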
